A study of Glycine max with 42 samples.

Results

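The 200 genes described here kept appreciable transcript levels in leaves of podded Williams 82 soybean through day 64 after planting and were lower at day 76, the last sampling, which the study design places at the onset of leaf senescence. They were taken from 38177 genes in the Williams 82 table. Of these, 14670 averaged at least 50 normalised counts in each of the initial group and the controls of days 45, 54 and 64, and are called eligible genes below. A normalised count is a gene's read count divided by a size factor for its library. For each eligible gene the mean of log2(normalised count + 1) in controls of day 76 was subtracted from the lowest of those 4 group means, and the 200 genes with the largest drop became the members. The members were thus selected on the initial and control libraries of Williams 82, and no test is given on those.

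The samples were 42 RNA sequencing libraries of trifoliate leaves, 3 in each of 14 groups. In the cultivar Williams 82, sampling began with an initial group at day 38, followed by depodded plants, from which the pods were removed mechanically, and podded controls. Line T295H had an initial group at day 28, the R2 flowering stage, then sterile plants and controls at days 35 and 63. The labels do not give the allele behind the sterility, the genotype of the T295H controls, or whether an initial group came from control plants. Whether libraries numbered as replicates are different plants is not stated either. The p-values therefore reflect library-to-library spread alone, and part of that spread may be technical.

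The depodded groups of days 45 and 54 carry the title numbers 2 and 3, as do the controls of those days. For the last 2 depodded groups, title and day label conflict. The group numbered 4 in its titles is labelled day 76 and the group numbered 5 is labelled day 64, whereas the controls carry number 4 at day 64 and number 5 at day 76. These groups are called depodded-4 and depodded-5 here, and which of them was sampled later cannot be told apart.

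In annual plants such as soybean, a leaf that senesces dismantles its chloroplasts and exports nitrogen and other nutrients to the filling seeds. During this programme transcripts for photosynthesis and growth decline and those for protein and chlorophyll breakdown increase. Removing the pods, or blocking seed set by sterility, takes away the main sink for these nutrients, and leaves of such plants are known to stay green longer and to store protein and starch. The files give soybean gene IDs without names, and 0 of 39557 IDs matched the RefSeq gene table used as reference, so no function, sequence or pathway is given for any member. Leaf and other tissue markers could not be checked for the same reason. Because whole leaf tissue was sequenced, fewer cells of a type and less RNA per cell cannot be told apart.

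Recovered read totals per library lay between 6663477 and 13166094 for Williams 82 and between 5471456 and 11877733 for T295H. Some libraries stood apart from their group in the members. Depodded day 45 replicate 2 had a member median of 7.18 on the log2(normalised count + 1) scale, below the 8.73 and 8.69 of replicates 1 and 3, so results that use this group are given also without it. Control day 64 replicate 2, at 8.79, lay above the 7.55 and 7.63 of its group, and control day 76 replicate 2, at 5.12, lay above 3.39 and 3.77. Both of these control libraries were among those that chose the members.

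The members' drop, which the choice itself fixed, ran from 2.96 to 7.80 on the log2 scale with a median of 3.59, against a median of -0.44 over the eligible genes. It reached 4 or more in 69 members and 5 or more in 18. The last genes inside the limit had drops of 2.9622 and 2.9616, and the first outside it 2.9595 and 2.9563. Leaving out control day 76 replicate 2 gave the members a median drop of 4.2. This library had the highest of the 3 values in 161 of the 200 members, against 4689 of the 14670 eligible genes.

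The loss was not confined to the last sampling. The initial group had the highest of the 4 earlier means in 131 members, and controls of day 64 had the lowest in 133. The median difference of day 64 controls from initial leaves was -1.16 on the log2 scale in the members and -0.0007 in the eligible genes. In 110 members day 64 controls were at least 1 log2 unit below initial leaves, in 55 at least 2 units, and in 5 at least 1 unit above, while 85 lay within 1 unit. The median difference of day 76 from day 64 controls was -3.72, a step that the choice itself fixed at 2.96 or more in every member. Over the whole course the median member level was 9.31 in initial leaves and 8.74, 8.67, 7.92 and 3.84 in controls of days 45, 54, 64 and 76. In 186 members every day 76 library lay below every day 64 library, and in 182 it lay below all 12 earlier libraries. These libraries chose the members, so the separation is largely built in. It was not counted over the eligible genes.

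**Figure D1:**
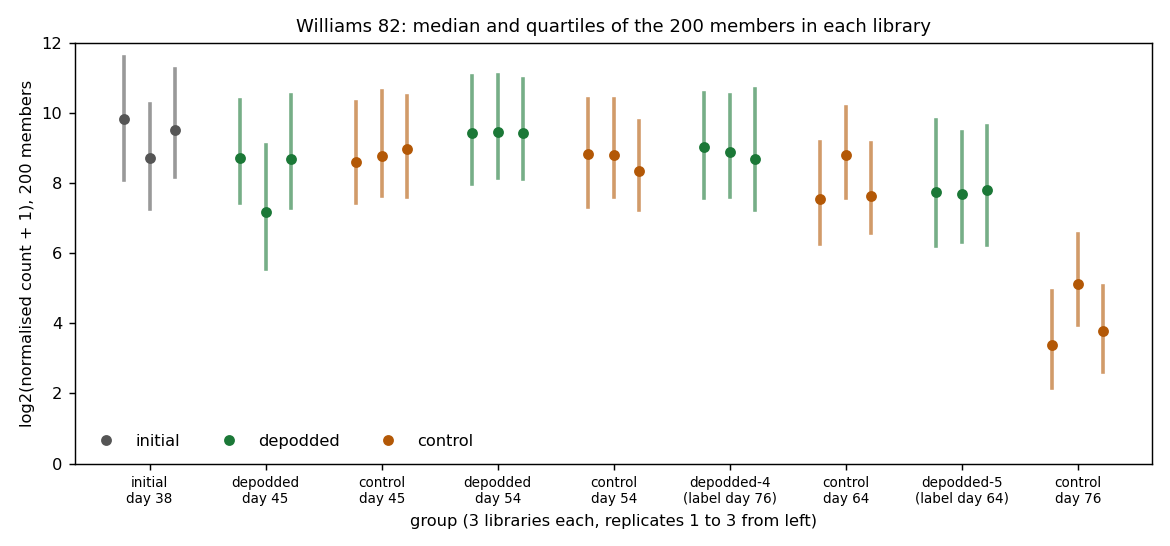
Median (point) and quartiles (bar) of log2(normalised count + 1) over the 200 members in each Williams 82 library, by group. Control day 76 libraries sit at 3.39, 5.12 and 3.77, below every other library, and every library of both late depodded groups has a median of 7.69 or more.

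Glyma.12G218900, on chromosome 12, had the largest drop. It had 183, 153 and 391 normalised counts in initial leaves, 400.1, 666 and 234 in controls of day 45, 713, 1008 and 336 at day 54, 248, 239.9 and 313 at day 64, and 0 in all 3 libraries of day 76. Its earlier libraries showed no steady decline, and it was the one member with no count at day 76. Glyma.16G165200, on chromosome 16, was next, with 21752, 1506 and 12356 normalised counts in initial leaves, 4682, 6123 and 8589 in controls of day 45, 5437, 4247 and 2461 at day 54, 637, 5357 and 1292 at day 64, and 5.2, 28.9 and 5.05 at day 76. In this gene the spread among day 64 libraries was wide, replicate 2 being the high one, but none came near the day 76 values.

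As a share of all normalised counts, the members together took 5.05% ± 1.46 in initial leaves and 3.87% ± 0.166, 2.47% ± 0.529, 1.71% ± 0.796 and 0.158% ± 0.126 in controls of days 45, 54, 64 and 76 (SD, n = 3 each). The share in depodded leaves was 3.1% ± 1.07 at day 45, 5.2% ± 0.601 at day 54, 4.3% ± 0.401 in depodded-4 and 4.57% ± 0.535 in depodded-5 (SD, n = 3 each). The share and the median of the members part ways in depodded-5, where the share was near that of initial leaves but the median level, 7.65, was not. The 10 most abundant members held 65.7% of the members' counts in depodded-5 and 42.8% in initial leaves.

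**Figure D2:**
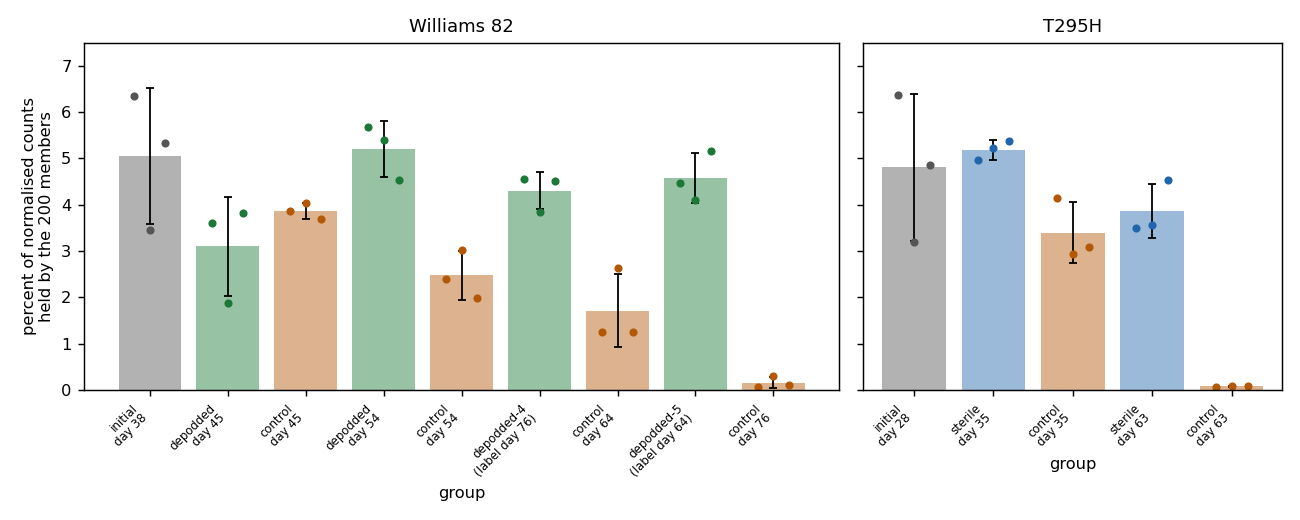
Percent of all normalised counts held by the 200 members, as bars (mean), error bars (SD, n = 3) and points (libraries). Control leaves end at 0.158% in Williams 82 and 0.0768% in T295H, while no depodded or sterile group averages under 3.1%.

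The late depodded groups were first set beside the last controls, those of day 76. Controls chose the members, so these values are a description and were not tested. All 3 depodded-4 libraries were above all 3 controls of day 76 in 195 members, where 30.2% of eligible genes showed that. For depodded-5 the count was 181, against 22.8% of eligible genes, with 2 members entirely below the controls, against 23.6%. All 6 late depodded libraries lay above the day 76 controls in 181 members, against 15.3%. The median difference from day 76 controls was 4.59 for depodded-4 and 3.47 for depodded-5 on the log2 scale. The means of 6 members in depodded-5 were at or below the controls of day 76. Both differences share the same 3 control libraries.

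Title number and day label match the late depodded groups to different controls, so both were also set beside controls of day 64, a comparison chosen after seeing the data. Depodded-4, which has the title number of those controls, had a median difference of 0.75 from them in the members and -0.045 in the eligible genes. It lay entirely above them in 67 members, against 18.8% of eligible genes, and entirely below in 14, against 23.1%. Depodded-5, which has their day label, had a median difference of -0.48 in the members and -0.081 in the eligible genes. It lay entirely above in 34 members, against 26% of eligible genes, and entirely below in 76, against 31.9%. Against day 64 controls, unlike those of day 76, the medians of the late depodded groups thus had opposite signs.

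The earlier depodded groups did not differ from their controls in one direction. Their median differences were smaller than those of the late groups from day 76 controls, which the choice itself made low in the members. They were of similar size to the 0.75 and -0.48 of the late groups against day 64 controls. At day 45, depodded leaves had a median difference of -0.69 from controls, with 1 member entirely above, against 6.03% of eligible genes, and 30 entirely below, against 7.58%. Without depodded replicate 2, left out after seeing the data, the median difference was -0.14, with 5 entirely above, against 9.54%, and 31 entirely below, against 12.5%. At day 54 the median difference was 0.87, with 117 members entirely above, against 17.7% of eligible genes, and 9 entirely below, against 14.4%. The mean of depodded leaves was at or above the lowest of the 4 control and initial means in 108 members at day 45, 190 at day 54, 169 in depodded-4 and 79 in depodded-5. The count at day 45 was 149 without replicate 2. The same held at day 45 for 11443 of the 14670 eligible genes, and for 11766 without replicate 2. Members thus did so less often than eligible genes at that day. The choice favoured a high value of that lowest mean in the members, so nothing about them is read from the difference. Eligible genes were not counted in this way for the other depodded groups.

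Changes among the depodded groups were tested in libraries that took no part in the choice, with limma on log2(normalised count + 1) in a fit of the 12 depodded libraries, and a gene was called at an adjusted p under 0.05 over 29208 genes. Relative to depodded leaves of day 45, 104 members rose by day 54 and 1 fell, where 18.2% and 18.7% of all tested genes did. The median change was 1.33. Without depodded day 45 replicate 2, the low library, 89 members rose and 8 fell, against 17.5% and 17.9% of all genes. The median was then 0.83. In depodded-4, 49 members were higher than at day 45 and 10 lower, against 18.1% and 19.2% of all genes, with a median change of 0.73. Without depodded day 45 replicate 2 the counts were 41 and 27, against 17.6% and 18.6% of all genes, and the median was 0.12. With all libraries, the share of members higher in depodded-4 was 24.5%, close to the 19.1% among eligible genes.

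Depodded-5 stood lower. Against day 45, 21 members were higher and 48 lower, where 10.4% and 12.1% of all tested genes were called, and the median change was -0.50. Leaving out day 45 replicate 2 raised the number that fell to 113, against 14.1% of all genes, so this count rests on 1 library. The number higher was then 22, against 11.2% of all genes, and the median was -1.13. Against depodded-4, a comparison that does not use that library, 7 members were higher and 86 lower, or 3.5% and 43.0%, where 14.4% and 13.5% of all genes and 16.6% and 16.9% of eligible genes were called. The median change was -1.06.

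Among the members that rose by day 54, Glyma.16G165800 on chromosome 16 had the largest change. It had 4179.7, 4054 and 4970.3 normalised counts in depodded leaves of day 54, against 585, 11.8 and 469 at day 45. All day 54 libraries were above all day 45 libraries, and replicate 2 was far below the rest at day 45. The change was 4.85 on the log2 scale (SE 1.02, adjusted p = 0.0029) and 3.06 without that replicate. The gene then had 2204, 3190.2 and 1642 normalised counts in depodded-4 (log2 change 3.89 against day 45, SE 1.02, adjusted p = 0.010, and 2.11 without day 45 replicate 2).

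In depodded-5 Glyma.16G165800 had 86.6, 87.0 and 134 normalised counts. Those libraries lay far below depodded-4, by a log2 change of -4.48 (SE 1.02, adjusted p = 0.0066), but above the 0, 19.3 and 1.68 of day 76 controls. Glyma.12G218900 went the same way, with 9.21, 1.85 and 4.90 normalised counts in depodded-5, against 77.2, 322 and 140 in depodded-4. The groups did not overlap, the mean was 33.8-fold lower (95% counting interval 17.5 to 74.7), and the log2 change was -4.78 (SE 0.93, adjusted p = 0.0027).

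Glyma.10G092800, on chromosome 10, had the largest change in depodded-4. It had 650.4, 626 and 506 normalised counts there and 449.9, 539.8 and 568 in depodded leaves of day 54, against 94.1, 0 and 172 at day 45. Replicate 2 was again the library without a count. The log2 change was 4.54 in depodded-4 (SE 1.32, adjusted p = 0.017) and 4.35 at day 54 (SE 1.32, adjusted p = 0.021). Without replicate 2 of day 45 the changes were 2.21 and 2.01. The first call was lost without depodded-4 replicate 2 (adjusted p = 0.050), and the second without day 54 replicate 2 (0.057) or replicate 3 (0.057) and with DESeq2 (log2 change 2.55, adjusted p = 0.054).

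A smaller set declined in depodded leaves as well. Glyma.05G003900, on chromosome 5, was the 1 member that fell by day 54, with 759, 866 and 695 normalised counts, against 1473, 1909 and 2228 at day 45 (log2 change -1.26, SE 0.28, adjusted p = 0.0037, and 0.073 in a fit of all 27 Williams 82 libraries). Glyma.07G136000, on chromosome 7, had 59.1, 49.2 and 97.5 in depodded-4, against 275, 432 and 146 at day 45 (log2 change -1.96, SE 0.43, adjusted p = 0.0035, and 0.068 in the fit of all 27). Glyma.18G184000, on chromosome 18, had 233, 248 and 101 normalised counts in depodded-4, against 766, 280.3 and 643 at day 45 (log2 change -1.51, SE 0.39, adjusted p = 0.0094). In none of these 3 did the compared libraries overlap. Without day 45 replicate 2 the changes were -1.23, -1.59 and -1.95, and all 3 passed.

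Some members declined in depodded-5 as far as in the controls. Glyma.08G314700, on chromosome 8, had 5.53, 1.85 and 1.63 normalised counts in depodded-5, against 87.2, 59.2 and 79.4 in depodded leaves of day 45, and 1.73, 9.63 and 13.5 in controls of day 76. Its depodded-5 libraries were at or under the floor of 6 counts per library, below which a gene cannot be told from absent, and overlapped with those of the controls. The mean was 25.1-fold lower than at day 45 (95% counting interval 10.4 to 78.9), with a log2 change of -4.36 (SE 0.47, adjusted p = 5.4e-05), and -4.52 without day 45 replicate 2. Glyma.12G192900, on chromosome 12, had 3.69, 0 and 0 in depodded-5, against 106, 11.8 and 115 at day 45. The groups did not overlap, the mean was 63.1-fold lower (95% counting interval 17.0 to 529), and the log2 change was -5.02 (SE 0.84, adjusted p = 0.0010). Without replicate 2 of day 45 it was -6.06, and without depodded-5 replicate 1 it was -5.76.

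Others reached their highest level in depodded-5. Glyma.06G170300, on chromosome 6, had 42109, 21368 and 85613 normalised counts in depodded-5, against 4605, 3788 and 9374 in depodded-4, and 93.6, 299.7 and 38.8 in controls of day 76. Every depodded-5 library exceeded every other Williams 82 library of this gene. The log2 change from depodded-4 was 2.96 (SE 0.54, adjusted p = 0.0019). Glyma.15G241300, on chromosome 15, had 1037, 702 and 1530.0 in depodded-5, against 227, 125 and 195 in depodded-4 (log2 change 2.54, SE 0.34, adjusted p = 0.00034), and its groups did not overlap.

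Against day 45, the largest increases in depodded-5 were those of Glyma.07G034900 and Glyma.13G321700. Glyma.07G034900, on chromosome 7, had 11769, 4675 and 15442 normalised counts in depodded-5, against 273, 1451 and 545 at day 45 (log2 change 3.98, SE 0.55, adjusted p = 0.00029, and 4.61 without day 45 replicate 2). Glyma.13G321700, on chromosome 13, had 26334, 13099 and 26126 in depodded-5, against 1255, 1176 and 4038 at day 45 (log2 change 3.52, SE 0.47, adjusted p = 0.00025, and 3.21 without that library). In both genes all depodded-5 libraries were above all day 45 libraries.

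**Figure D3:**
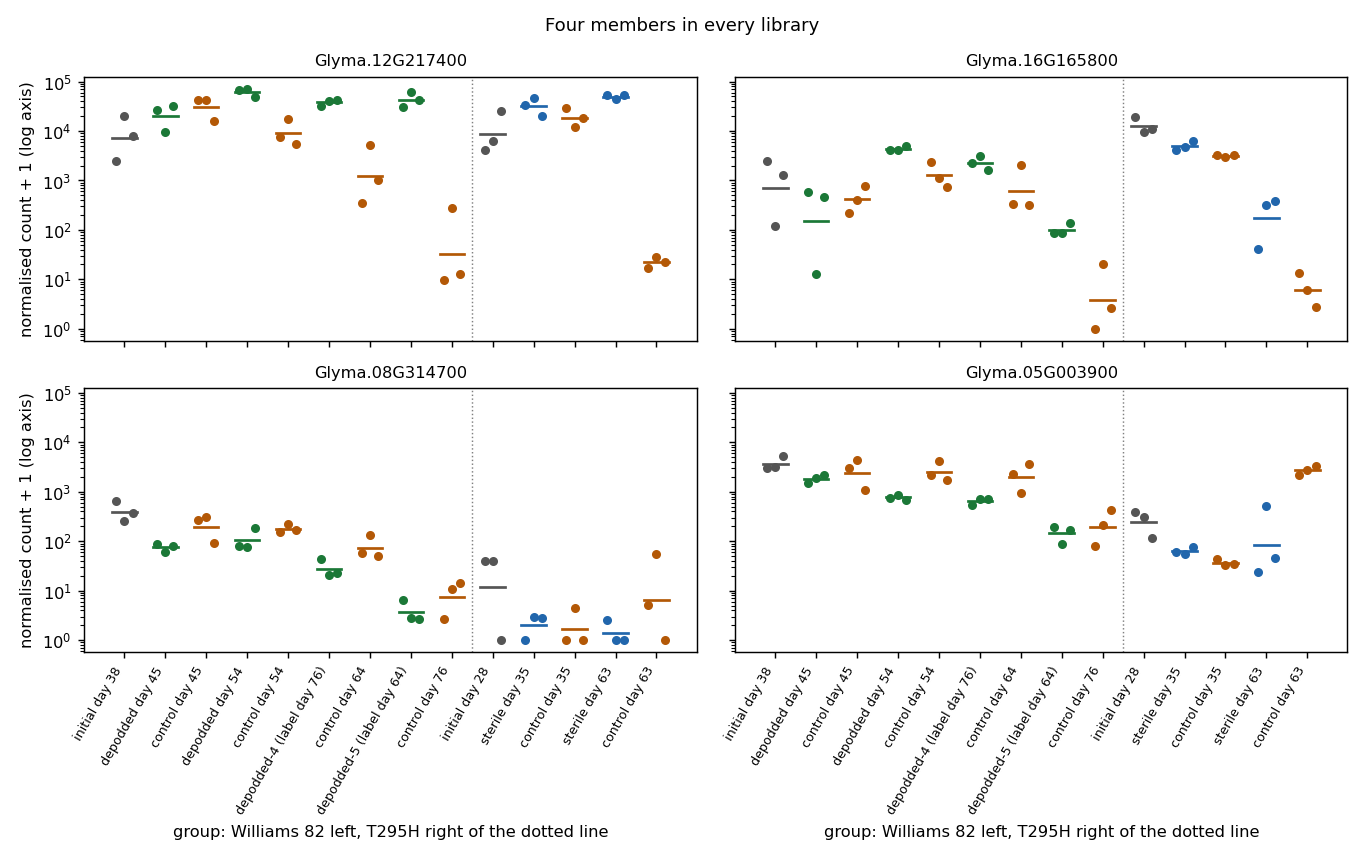
Normalised count + 1 (log axis) of 4 members in every library (points) with the mean on the log scale (line), by group, Williams 82 left and T295H right of the dotted line. Glyma.12G217400 has at least 9681 in every depodded library and at least 44078 in sterile leaves of day 63. Glyma.16G165800 is lower in depodded-5 than in depodded-4, and Glyma.08G314700 is lower in depodded-5 than in depodded leaves of day 45. Glyma.05G003900 has at least 2225 in T295H controls of day 63.

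The second line answered whether the same genes are lost where no library took part in their choice. All 200 IDs were in the T295H table, and 195 passed its filter of a mean of at least 10 normalised counts over 15 libraries. The other 5 reached at most 57.2 in any T295H library, although their Williams 82 means before day 76 lay between 50.6 and 921. One of them was Glyma.08G314700, with 4.06, 55.5 and 0 normalised counts in controls of day 63 and 0, 3.51 and 0 at day 35. Tests in T295H used limma in a fit of all 15 libraries, adjusted over 29370 genes.

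The first interval in T295H runs from day 28 to day 35. In controls of day 35, 8 were higher and 56 lower than in initial leaves, where 5.41% and 6.19% of all genes and 5.56% and 6.36% of eligible genes were called, with a median change of -0.84. DESeq2 called 8 higher and 100 lower, against 5.53% and 9.68% of all genes. The count depends on single libraries as well. With limma it was 23, 28 and 97 in both directions together without initial replicates 1, 2 and 3, and 30, 29 and 24 without control day 35 replicates 1, 2 and 3. This dependence was not confined to the members. With all libraries, 1589 of all tested genes were higher and 1818 lower. Higher were 812, 796 and 3580, and lower 770, 910 and 3391, without initial replicates 1, 2 and 3. Without the control replicates in the same order, the numbers were 683, 721 and 611 higher and 946, 916 and 774 lower. Among called members whose libraries did not overlap, Glyma.16G172600 on chromosome 16 rose most. It had 399, 333 and 276 normalised counts in controls of day 35, against 144, 77.3 and 90.4 in initial leaves. Its log2 change was 1.72 (SE 0.34, adjusted p = 0.0062), and the call was kept in every alternative. Glyma.18G258000, on chromosome 18, was next, with 3375, 2056 and 1977 normalised counts in controls of day 35, against 569, 766 and 908 in initial leaves (log2 change 1.70, SE 0.41, adjusted p = 0.017). That call was lost without initial replicate 1 (adjusted p = 0.069) or control day 35 replicate 1 (0.079). Glyma.17G103300, on chromosome 17, fell most among such members. It had 2.05, 0 and 0 normalised counts in controls of day 35, under the floor of 6 counts per library, against 114, 51.5 and 6.45 in initial leaves. The mean was 83.9-fold lower (95% counting interval 14.5 to 3369). Its log2 change was -4.62 (SE 1.19, adjusted p = 0.022), and the call was lost in 5 alternatives and kept in 7.

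Glyma.12G218900, the member with the largest drop in Williams 82, was among those that fell early in T295H, with 16.4, 17.5 and 26.7 normalised counts in controls of day 35, against 691, 283 and 103 in initial leaves (log2 change -3.72, SE 0.88, adjusted p = 0.016). The groups did not overlap, but the call was lost without initial replicate 1 (adjusted p = 0.073) or control day 35 replicate 1 (0.057) or 2 (0.055). In controls of day 63 it had no count in any library, at least 3.7-fold lower than in controls of day 35 when set against the floor of 6 counts per library. Sterile leaves of day 63 had 0, 26.6 and 4.22, against 41.2, 68.2 and 56.7 in sterile leaves of day 35. That change was -3.40 (SE 0.88, adjusted p = 0.011), and -2.44 with DESeq2 (adjusted p = 0.089). Sterile leaves differed from controls of day 63 by 2.39 (SE 0.88, adjusted p = 0.035). The last call was lost in 7 alternatives and kept in 6.

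By day 63 most of the tested members fell in T295H controls. Relative to controls of day 35, 182 of the 195 tested members fell and 3 rose, or 93.3% and 1.54%, where 31.1% and 29.3% of all tested genes and 32.8% and 33.9% of eligible genes were called. The median change was -5.98. The median level of the 200 members was 9.19 in initial leaves, 8.57 in controls of day 35 and 2.84 in controls of day 63. In 186 members every day 63 control library was below every day 35 control library, against 5260 of 14648 eligible genes, or 35.9%, and 15 members had no count in any day 63 control library. A drop measured as in Williams 82, from the lower of initial and day 35 means to day 63, had a median of 5.73 in the members and -0.23 in the eligible genes. It was at least as large as the smallest member drop in Williams 82 in 159 members, or 79.5%, and in 880 of 14648 eligible genes, or 6.01%. In 12 members it was below 0.

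**Figure D4:**
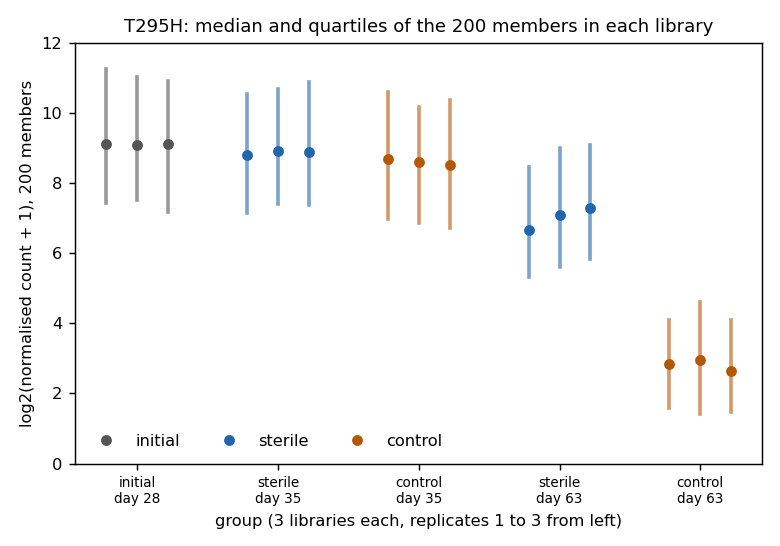
Median (point) and quartiles (bar) of log2(normalised count + 1) over the 200 members in each T295H library, by group. Control libraries of day 63 lie at 2.65 to 2.95, sterile libraries of day 63 at 6.67 to 7.30, and all others between 8.51 and 9.12.

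Glyma.18G258000, which was higher at day 35, fell furthest, to 0, 0 and 1.76 normalised counts in controls of day 63, against 3375, 2056 and 1977 in controls of day 35. All day 63 libraries were at or under 2 reads. The mean was 4220.5-fold lower with a 95% counting interval of 757 to 166739, so its size is imprecise (log2 change -10.74, SE 0.41, adjusted p = 4.7e-11). Glyma.08G350800, on chromosome 8, had 8.12, 16.8 and 8.78 in controls of day 63, against 16906, 10264 and 10238 in controls of day 35. The groups were separated by more than 2 orders of magnitude, with a log2 change of -10.02 (SE 0.33, adjusted p = 1.4e-11).

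At day 35 few members passed the test between sterile and control leaves of T295H. With limma, 1 member was higher and 0 lower in sterile leaves, where 0.0953% and 0.0817% of all genes and 0.0273% and 0.109% of eligible genes were called, and 40 members had an unadjusted p under 0.05, or 20.5%, against 12.9% of all genes. The member was Glyma.13G321700, with 21122, 16804 and 23044 normalised counts in sterile leaves, against 9364, 6045 and 5538 in controls (log2 change 1.57, SE 0.27, adjusted p = 0.029). No sterile library overlapped with a control library. A fit of only the 6 libraries compared called 31 members higher and 2 lower, against 2.19% and 1.62% of all genes, and DESeq2 called 14 higher and 0 lower, against 1.67% and 1.15%. With edgeR, 2 were higher and 0 lower, against 0.116% and 0.0919% of all genes. A limma fit blocked on replicate number called 0 members, where 0.0613% of all genes were higher and 0.0681% lower. No member was called in 5 of the 6 fits that left out 1 library. The median difference was 0.41.

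At day 63 sterile leaves retained most of the members. Relative to controls of the same day, 180 tested members were higher and 3 lower, or 92.3% and 1.54%, where 26.6% and 23.6% of all genes were called. The median difference was 4.54. In 175 members every sterile library was above every control library, against 4253 of 14648 eligible genes, or 29.0%. The retention was incomplete. Relative to sterile leaves of day 35, 122 members fell and 4 rose by day 63, or 62.6% and 2.05%, where 13.8% and 11.6% of all genes and 18.2% and 14.6% of eligible genes were called, with a median change of -1.59. The median level was 7.08 in sterile leaves of day 63, against 8.88 in sterile leaves of day 35.

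Glyma.12G217400, on chromosome 12, showed the largest difference at day 63. It had 53075, 44078 and 52890.1 normalised counts in sterile leaves, against 16.2, 26.9 and 21.1 in controls (log2 difference 11.15, SE 0.52, adjusted p = 5.1e-10). Sterile leaves of day 35 had 32907, 46631 and 20409, overlapping with those of day 63, and the log2 change between them was 0.66 (SE 0.52, adjusted p = 0.38). In Williams 82 it had 30294, 61551 and 43270.3 in depodded-5 and 32255, 41229 and 43118 in depodded-4, against 8.67, 276 and 11.8 in controls of day 76. No depodded library came near the controls.

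Glyma.14G085600, on chromosome 14, was similar, with 20926, 14175 and 19075 normalised counts in sterile leaves of day 63, against 10.2, 8.41 and 7.02 in controls (log2 difference 10.88, SE 0.38, adjusted p = 8.1e-11). Its sterile leaves of day 35, at 11535, 20494 and 23764, overlapped with those of day 63. The depodded-5 libraries of this gene, at 27040.2, 60094 and 36644, stood far above the 6.93, 65.8 and 5.05 of Williams 82 controls of day 76.

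Other members fell in sterile leaves without reaching the controls. Glyma.16G165200 had 145, 432 and 666 normalised counts in sterile leaves of day 63, against 17149, 17416 and 27129.7 at day 35 (log2 change -5.85, SE 0.47, adjusted p = 4.0e-06, and -5.22 without sterile day 63 replicate 1). The sterile libraries still lay above the 18.3, 11.8 and 7.02 of controls of day 63. Glyma.12G169400, on chromosome 12, had 35.5, 86.4 and 131 in sterile leaves of day 63, against 3085, 2819.7 and 3472 at day 35 (log2 change -5.38, SE 0.64, adjusted p = 5.8e-05), and its controls of day 63 had 8.12, 0 and 5.27.

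Of the 4 members that rose in sterile leaves by day 63, the 2 with the largest changes had wide spreads. Glyma.20G204500, on chromosome 20, had 26278, 40735 and 80692 normalised counts at day 63, against 1329, 2568 and 3962 at day 35 (log2 change 4.21, SE 1.33, adjusted p = 0.031). Glyma.07G034900, which was also higher in depodded-5, had 11663, 5889 and 26108, against 285, 536 and 3097 (log2 change 3.96, SE 1.29, adjusted p = 0.036). The libraries did not overlap in either gene. The first call was lost whichever of the 6 libraries was left out (adjusted p 0.051 to 0.10), and the second without replicate 1 or 2 of day 35 or replicate 1 or 3 of day 63 (0.082 to 0.14) and with edgeR (log2 change 3.51, adjusted p = 0.069).

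The difference between sterile and control leaves changed with age in most of the members. Tested as an interaction, the signed difference (sterile minus control) was higher at day 63 than at day 35 in 160 tested members and lower in 3, or 82.1% and 1.54%. Of all genes 15.1% and 12%, and of eligible genes 17.7% and 15%, were called. The median interaction in the members was 4.0 on the log2 scale. The interaction was 10.38 in Glyma.12G217400 (SE 0.73, adjusted p = 2.2e-07) and 9.49 in Glyma.14G085600 (SE 0.54, adjusted p = 5.3e-08).

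A few members went the opposite way from most members in T295H. Glyma.05G003900 had 2225, 2715 and 3337 normalised counts in controls of day 63, against 43.1, 31.5 and 34.1 in controls of day 35 (log2 change 6.20, SE 0.77, adjusted p = 5.9e-06). Sterile leaves of day 63 had 22.6, 518 and 45.0, with replicate 2 apart from the others and all below the controls (log2 difference -5.04, SE 0.77, adjusted p = 7.6e-05, and -6.37 without sterile replicate 2 and -4.14 without replicate 1). In Williams 82 it had 78.0, 212 and 433 in controls of day 76, against 2241, 958 and 3658 at day 64, a fall that the choice itself required. The days compared differ between the lines, and T295H was not sampled after day 63. No difference between the lines is therefore read from these values.

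Glyma.01G208200, on chromosome 1, had 1.61, 8.30 and 1.41 normalised counts in sterile leaves of day 63, against 42.6, 77.3 and 57.9 in controls (log2 difference -3.92, SE 0.59, adjusted p = 6.9e-05, and -4.55 without sterile replicate 2). The sterile libraries were near the floor and apart from the controls. Controls of day 35 had 16.4, 52.6 and 23.8, and their difference from day 63 did not pass (log2 change 1.04, SE 0.59, adjusted p = 0.14).

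Glyma.03G225500, on chromosome 3, rose in T295H controls, with 26.4, 80.7 and 21.1 normalised counts at day 63, against 0, 14.0 and 4.45 at day 35 (log2 change 3.08, SE 0.84, adjusted p = 0.0054). Its control libraries did not overlap, and the change was 2.02 without day 35 replicate 1 and 3.97 without day 35 replicate 2.

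The late depodded groups and the sterile plants share no library, so their calls can be set side by side. All 7 members that were higher in depodded-5 than in depodded-4 were higher in sterile than in control leaves of day 63, with a median difference of 7.65. Of the 86 that were lower in depodded-5, 75 were higher in sterile leaves, 1 was lower, 8 were not called and 2 were not tested, with a median of 3.59 among the 75. Since 92.3% of all tested members were higher in sterile leaves, nothing about these subsets is read from the counts. Of the same 86, 56 fell in sterile leaves between days 35 and 63, or 65.1% of them, and none rose. As the order of depodded-4 and depodded-5 in time is not known, no shared decline is read from that count. Of the 107 not called between the depodded groups, 64 fell in sterile leaves, or 59.8%, and 4 rose. The difference between these shares was not tested.

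**Figure D5:**
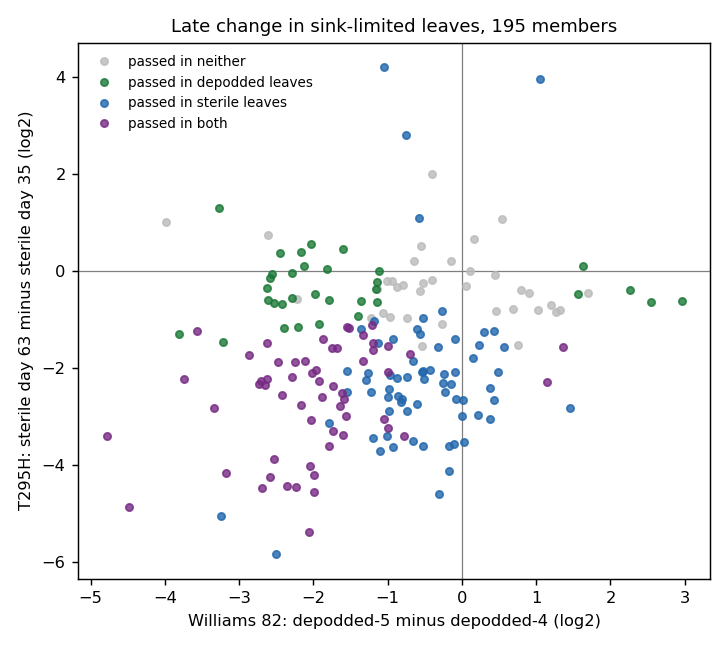
Log2 change between depodded-5 and depodded-4 (x axis) and between sterile leaves of days 63 and 35 (y axis) for the 195 members tested in both lines, coloured by where the change passed. Most points lie below 0 on both axes, and the order of depodded-5 and depodded-4 in time is not known. The 56 that passed below 0 on both axes overlap on the y axis with those called in sterile leaves alone.

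The members were scattered over the genome. The IDs place them on all 20 chromosomes, with 199 assigned and 1 on an unplaced sequence. Chromosome 8 held 17 of 1060 eligible genes and chromosome 12 held 15 of 660, or 1.60% and 2.27%, and chromosome 4 had the lowest share with 6 of 720, or 0.833%. Counting IDs in order, 25 members formed 14 pairs within 10 IDs of each other, and 5 pairs were adjacent. Glyma.16G165200 and Glyma.16G165800, next in drop after Glyma.12G218900, were 5 IDs apart. Their log2 changes were 2.59 and 3.89 in depodded-4 against day 45, -2.51 and -4.48 in depodded-5 against depodded-4, -9.93 and -9.03 in T295H controls of day 63 against day 35, and 4.79 and 4.83 in sterile against control leaves of day 63. The first 2 values of Glyma.16G165200 did not pass (adjusted p = 0.078 and 0.10), and without day 45 replicate 2 the first values of the pair were 0.72 and 2.11. Glyma.01G208200, by contrast, had a member 2 IDs away with a log2 difference of 1.64 between sterile and control leaves of day 63, against its own -3.92. Whether neighbouring members are near-identical copies that share reads could not be recognised, which leaves the counts of any named gene uncertain to that extent.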

How the data were processed

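Per the labels' protocols, RNA came from trifoliate leaves by phenol-chloroform extraction and libraries followed standard Illumina protocols. Bowtie2 and DESeq2 appear in the submitters' processing notes without version or role. The genome build, annotation, counter and strand setting are not given in these sources. The authors deposited 1 table for each line, normalised separately, of signal values by gene and library. Each column holds whole multiples of 1 step, as counts divided by a size factor would. Dividing by the step gave whole reads within 0.01 for 100% of values (largest deviation 7.7e-05). Between 98.8% and 99.2% of counts above 0 were even in every library, for a reason not stated in the sources used here, so floors (3 pairs, or 6 counts, per library) and 95% exact Clopper-Pearson intervals were computed on pairs and cover counting error only.

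The T295H IDs carry a numbered ending, which was removed, and 36023 IDs are in both tables. The members and lists were chosen with earlier results of these data known. Members were chosen on initial and control libraries of Williams 82, so the main tests used the 12 depodded libraries, or the 15 T295H libraries, none of which took part. Tests were two-sided, with limma 3.58.1 (eBayes with a trend) under R 4.3.3, applied to log2(normalised count + 1), for genes averaging at least 10 over the table, with Benjamini-Hochberg adjustment over all of them and a threshold of 0.05. Adding 1 understates the change of low genes. Alternatives were a pseudocount of 5, no filter or a mean of at least 50, other libraries in the fit, the replicate number as a block, edgeR 4.0.16 and DESeq2 1.42.0 on the recovered reads, and leaving out each replicate. The fits were tested on simulated data. Replicate libraries always differed beyond sampling noise (lowest chi-square per degree of freedom 3.34).

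Gene lists by product name and the tissue markers could not be applied, since no ID matched the reference. The rule for named genes was therefore limited to the 2 highest and 2 lowest members per comparison among those past the threshold whose libraries do not overlap, plus the 2 with the largest drop; a lone call was named after its values were seen. Sequences were not used here.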

Additional observations from a re-analysis of the deposited data

Results flagged for a closer look

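The difference between sterile and control leaves of T295H was not the same at days 63 and 35. With limma's interaction test, it differed in 163 members. The signed difference, sterile minus control, was higher at day 63 in 160 and lower in 3, where 15.1% and 12% of all tested genes were called. Among the named genes it differed by 10.38 on the log2 scale in Glyma.12G217400 and 9.49 in Glyma.14G085600, and by -5.82 in Glyma.05G003900 and -3.29 in Glyma.01G208200 (adjusted p = 0.0012 and 0.0089). At day 35, Glyma.05G003900 had 59.1, 53.1 and 76.8 normalised counts in sterile leaves, against 43.1, 31.5 and 34.1 in controls, while at day 63 all sterile libraries were below all controls. The age at sampling, the stage of the plants and any batch by sampling day cannot be told apart.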

How the results depend on the processing

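The number of members called kept within 1.5 times of the value reported under every alternative that was run, except as follows. For T295H controls of day 35 against initial leaves it was 108 with DESeq2, against 64. For sterile against control leaves of day 35 it was 2 with a pseudocount of 5, 33 in a fit of only the compared groups, 2 with edgeR, 14 with DESeq2 and 0 with the replicate block, against 1. With the pseudocount of 5, 0.208% of all genes were higher and 0.116% lower. On the recovered reads, edgeR called 8 members higher and 92 lower in depodded-5 against depodded-4, of 4218 and 4108 genes in all, and 179 and 3 in sterile against control leaves of day 63, of 8236 and 6789. With the replicate number as a block, the other counts were 108, 59, 69 and 92 among depodded groups (day 54, depodded-4 and depodded-5 against day 45, and depodded-5 against depodded-4), and in T295H 60 for controls of day 35 against initial leaves, 185 for controls of day 63 against day 35, 183 for sterile against control leaves of day 63, 126 for sterile leaves of day 63 against day 35 and 165 for the interaction. Among depodded groups these were 107 higher and 1 lower, 50 and 9, 22 and 47, and 7 and 85. Of all genes, 17.3% and 18.1%, 17.2% and 18.5%, 9.53% and 11.5%, and 13.5% and 12.6% were called. In T295H they were 8 higher and 52 lower, 3 and 182, 180 and 3, 4 and 122, and 162 and 3. Of all genes, 5.22% and 5.95%, 29.2% and 30.8%, 26.4% and 23.4%, 11.5% and 13.5%, and 14.8% and 11.8% were called there. The replicate numbers did not pair the libraries: deviations of libraries with the same number correlated between -0.26 and 0.20.

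Leaving out 1 library in turn gave 70 to 114 members at day 54 against 45 in depodded leaves, 39 to 74 for depodded-4 against day 45 (39 without depodded-4 replicate 2), 49 to 135 for depodded-5 against day 45 (135 without day 45 replicate 2) and 65 to 83 for depodded-5 against depodded-4. In the same order, 13.3% to 18.0%, 13.0% to 17.7%, 6.31% to 11.2% and 9.16% to 12.9% of all genes were called higher. Called lower were 14.8% to 17.9%, 14.9% to 18.6%, 8.78% to 14.1% and 8.94% to 12.6%. In T295H, leaving out 1 library gave 23 to 97, 180 to 184, 180 to 182, 0 to 1, 105 to 118 and 156 to 170, for controls of day 35 against initial leaves, controls of day 63 against 35, sterile against control leaves of days 63 and 35, sterile leaves of day 63 against 35, and the interaction. Of all genes, 2.08% to 12.2%, 26.3% to 27.2%, 23.4% to 24.4%, 0.0102% to 0.0715%, 7.62% to 9.71% and 12.5% to 14.7% were higher. Lower were 2.62% to 11.5%, 28.3% to 29.5%, 20.3% to 20.7%, 0.0034% to 0.0443%, 8.87% to 12.6% and 9.83% to 10.8%. All 6 late depodded libraries lay above controls of day 76 in 183 to 184 members with 1 control left out, against 181. Of the 200 members, 162 to 197 stayed in the list when 1 choosing library was left out (162 without control day 64 replicate 2) and 174 with a pseudocount of 5.

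Of 777 values of named genes under alternatives, 703 stayed on the same side of the threshold, 63 lost the call, 10 gained it and 1 reversed with a call. A change of sign where neither fit called the gene is counted among the 703. An example is Glyma.12G218900 in depodded-4 against day 45, at 1.15 with all libraries and -0.18 without day 45 replicate 2. The 1 that reversed with a call was Glyma.16G165200 in depodded-5 against day 45. It was -1.79 without day 45 replicate 2, against 0.08, and ran from -1.79 to 1.13 as 1 library in turn was left out. The cause was not tested. Depth limits the genes near 6 counts per library, where size is known only within the intervals given.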
